A study of Rattus norvegicus with 52 samples.

Results

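The 10 genes described here encode heat shock proteins and their partners: Hspa1a, Hspa1b, Hspa8, Hsph1, Dnajb1, Bag3, Hsp90aa1, Hspb1, Hspd1 and Hspe1. They were picked by symbol from 34034 symbols counted in every library, all 10 symbols were found, and all 10 were among the 17796 genes that passed the filter on low counts. The grouping is called cytosolic, but Hspd1 and Hspe1 encode the mitochondrial matrix chaperonins HSP60 and HSP10, so they are described apart from the other 8.

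The study measured lung RNA of Sprague Dawley rats, labelled WT, by 3′-end sequencing (QuantSeq) in 52 libraries, 4 in each of 13 groups, after 1 dose placed in the windpipe. The agents were quaternary ammonium compounds, positively charged surfactants that serve as disinfectants, and the Control group received DW, as the labels abbreviate the vehicle. The doses were 0.125, 0.25 and 0.5 for ABD, the same 3 for ADEB18, then 0.25, 0.5 and 1 for BKC, and lastly 0.0625, 0.125 and 0.25 for DDAC. The labels state neither their unit nor the age, the sex or the time after dosing. ABD and ADEB18 are known here by code name alone. The labels do not spell out the other names; BKC commonly stands for benzalkonium chloride (with a benzyl group) and DDAC for didecyldimethylammonium chloride (with a pair of decyl chains). Nothing in the labels says that the 4 libraries of a group came from separate animals, so p-values measure the spread between these libraries.

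Heat shock proteins are chaperones that bind unfolded or newly made proteins and keep them from aggregating. Many of their genes are switched on by heat shock factor 1, a transcription factor that binds repeats of the letters GAA in alternating orientation, when unfolded protein accumulates in the cytosol. The HSP70 proteins work in a cycle with J-domain proteins, which deliver substrates, and with nucleotide exchange factors, which release them, while HSP60 and HSP10 together form a folding chamber inside mitochondria.

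Library totals ranged from 8026084 to 13852249 counts, and levels are given as CPM, the counts of a gene relative to its library total after TMM scaling. Lung markers were present in all 52 libraries: Sftpc of alveolar type 2 cells stood at 6440 to 13181 CPM, Scgb1a1 of club cells at 1726 to 10890 CPM and the endothelial marker Cldn5 at 121 to 354 CPM. The macrophage marker Marco was at 0 in 36 libraries, but the 4 alveolar macrophage markers, Marco among them, summed to 123 to 244 CPM over the 52 libraries. In whole lung, fewer cells of a type and less RNA per cell cannot be told apart.

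**Figure D1:**
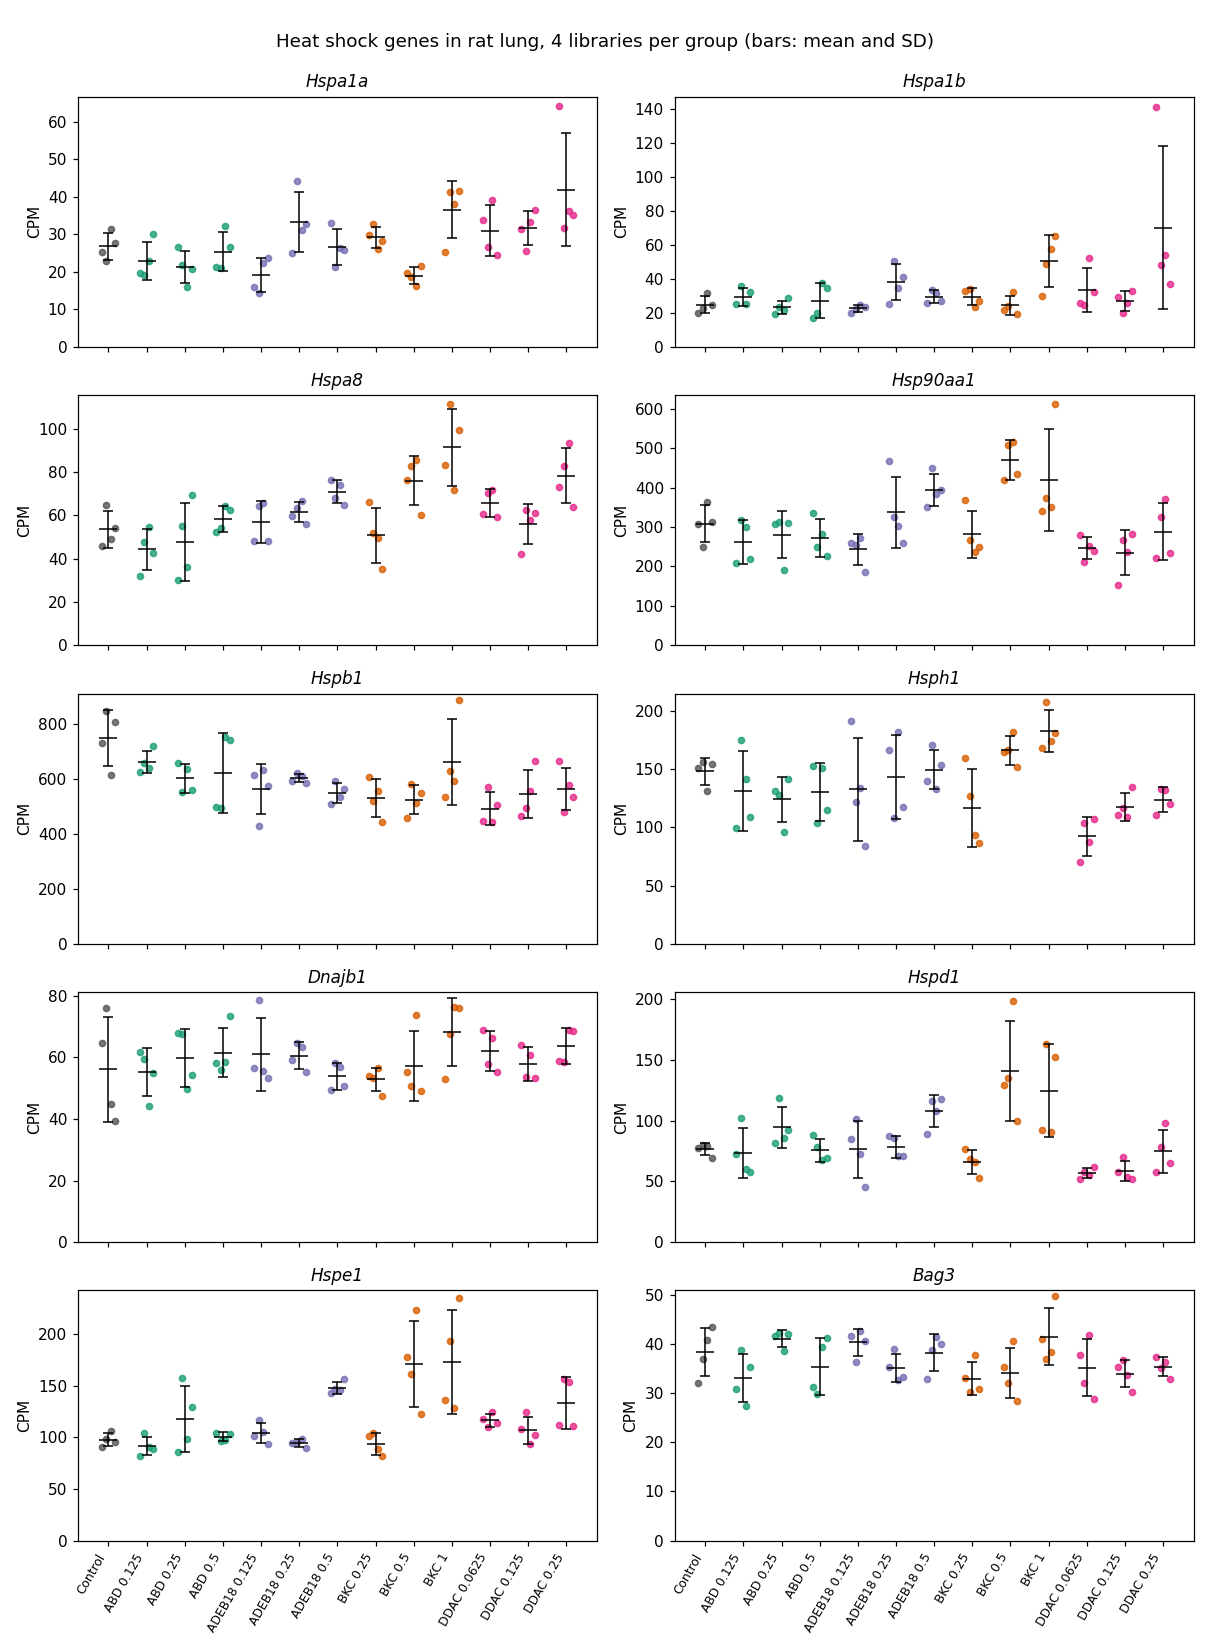
Level of each of the 10 genes in CPM (vertical axes) in the 4 libraries of each of the 13 groups (points), with the group mean and SD as bars. Hspa1b stood highest in the BKC 1 and DDAC 0.25 groups, with 1 DDAC 0.25 library at 141 CPM, while Hspe1 stood highest in the BKC 0.5 and BKC 1 groups. The group means of Dnajb1 and Bag3 varied little, though the Dnajb1 libraries of Control ran from 39.2 to 76.03 CPM.

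Hspa1a and Hspa1b encode near-identical stress-inducible HSP70 proteins, and the files do not show how reads fitting both genes were assigned, so the split between them is uncertain. Hspa1b read 20.1, 23, 31.8 and 24.8 CPM in the Control libraries (24.9 ± 4.99, SD, n = 4), 30.2, 48.8, 57.96 and 65.5 CPM at BKC 1 (50.6 ± 15.2) and 141, 48.2, 54.4 and 36.9 CPM at DDAC 0.25 (70.2 ± 48). At DDAC 0.25 all 4 libraries lay above every Control library, and 1 of them stood far above the other 3. At BKC 1 the lowest library lay within the Control range. Hspa1b rose at BKC 1 (log2 fold change 1.02 ± 0.28 SE, adjusted p = 0.0149) and at DDAC 0.25 (1.49 ± 0.29, adjusted p = 0.00357). Leaving out DDAC 0.25 replicate 1 lowered the second difference to 0.89 (adjusted p = 0.056), and leaving out BKC 1 replicate 4 ended the call at BKC 1 (adjusted p = 0.0677). Next in order of level came ADEB18 0.25, at 25.3, 50.5, 34.7 and 41.5 CPM (38 ± 10.6), which overlapped with both Control and BKC 1 and did not pass (0.61 ± 0.28, adjusted p = 0.721).

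Hspa1a passed the test in none of the 12 comparisons with Control. Its levels were 25.3, 22.9, 31.5 and 27.7 CPM in the Control libraries (26.8 ± 3.66). They were 64.3, 31.8, 36.3 and 35.2 CPM at DDAC 0.25 (41.9 ± 15.0; log2 fold change 0.64 ± 0.20, adjusted p = 0.0762). The 4 DDAC 0.25 libraries all lay above the Control libraries, and the library that was highest for Hspa1b was also highest for Hspa1a. At BKC 0.5 Hspa1a read 19.6, 18.7, 16.2 and 21.6 CPM, all below the Control libraries (-0.50 ± 0.21, adjusted p = 0.128). At BKC 1 it read 25.4, 41.4, 37.99 and 41.5 CPM (0.44 ± 0.21, adjusted p = 0.169).

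With the counts of both genes added, which removes the question of how they were split, the sum rose at BKC 1 (0.75 ± 0.23, adjusted p = 0.0249) and at DDAC 0.25 (1.12 ± 0.23, adjusted p = 0.00600). Hspa1b made up 47.98% ± 2.84 of the sum in Control (range 44.3% to 50.3%), 57.5% ± 3.82 at BKC 1 (54.1% to 61.2%) and 60.1% ± 7.17 at DDAC 0.25 (51.2% to 68.7%). Both dosed ranges lay above the Control range, but so did that of ABD 0.125 (56.3% ± 6.18, 51.7% to 65.1%), where the sum differed from Control by 0.02. The share itself was not tested.

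**Figure D2:**
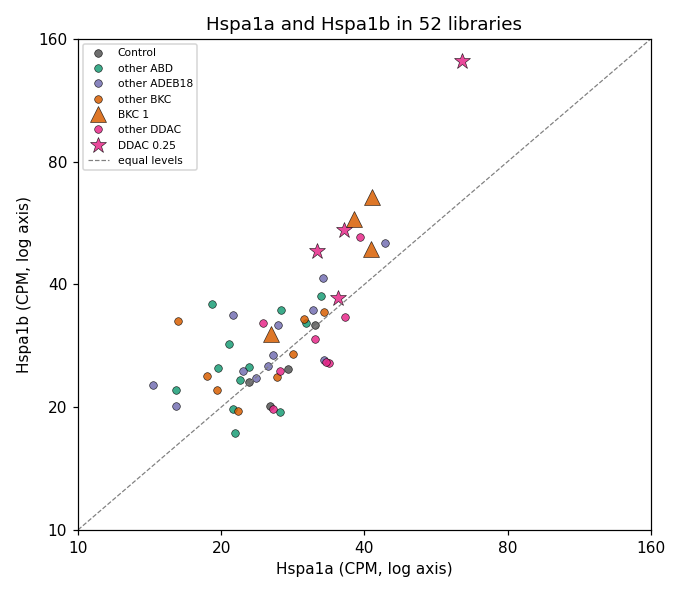
Hspa1a (horizontal, CPM, log axis) against Hspa1b (vertical, CPM, log axis) in each of the 52 libraries, with BKC 1 as triangles, DDAC 0.25 as stars and equal levels as a dashed line. All 4 libraries of BKC 1 and all 4 of DDAC 0.25 lie above the line, as do all 4 of ABD 0.125 and all 4 of ADEB18 0.25. In DDAC 0.25, 1 library, at 64.3 and 141 CPM, lies far from the rest.

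Hspa8 encodes HSC70, the constitutive HSP70 that folds new proteins and strips clathrin coats. It read 45.6, 64.96, 49.04 and 54.2 CPM in Control (53.5 ± 8.44) and 83.0, 111, 71.5 and 99.5 CPM at BKC 1 (91.4 ± 17.6), with no overlap. Hspa8 rose at BKC 1 by 0.77 ± 0.19 on the log2 scale (adjusted p = 0.00476), and the call held in all 8 fits that left out a Control or BKC 1 library. Its other high groups did not pass. The levels were 76.2, 82.6, 85.6 and 59.9 CPM at BKC 0.5 (0.51 ± 0.19, adjusted p = 0.073). They were 72.9, 82.9, 93.5 and 63.97 CPM at DDAC 0.25 (0.55 ± 0.19, adjusted p = 0.0938), and the lowest library of each lay inside the Control range.

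Hsph1 encodes HSP110, an exchange factor that releases ADP from HSP70. The Control libraries read 151, 156, 131 and 155 CPM (148 ± 11.6) and the DDAC 0.0625 libraries 70.4, 104, 87.8 and 107 CPM (92.3 ± 16.9). Every library at the lowest DDAC dose was below every Control library. Hsph1 fell at DDAC 0.0625 (-0.68 ± 0.19, adjusted p = 0.0378). The call ended in 6 of 8 fits that left out 1 library (Control replicates 1, 2 and 4 and DDAC 0.0625 replicates 1, 2 and 3; adjusted p up to 0.159) and with scaling by library size alone (adjusted p = 0.0505). At BKC 1 it read 168, 208, 174 and 181 CPM, all above the Control libraries, without passing (0.30 ± 0.19, adjusted p = 0.33).

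Dnajb1, the J-domain protein HSP40 that hands substrates to HSP70, and Bag3, an exchange factor that couples HSP70 to selective autophagy, passed in none of the 28 comparisons. Dnajb1 read 64.6, 76.03, 44.97 and 39.2 CPM in Control (56.2 ± 17.1) and 52.9, 67.5, 76.6 and 76.03 CPM at BKC 1 (68.3 ± 11), a difference of 0.28 with a 95% interval from -0.03 to 0.59. Bag3 read 32.1, 36.96, 40.7 and 43.3 CPM in Control (38.3 ± 4.87), and at BKC 1 it differed by 0.12 (interval -0.14 to 0.37). In both genes every dosed group overlapped with Control. Their highest and lowest group means lay 1.29 times apart for Dnajb1 and 1.26 times for Bag3, against 3.09 times for Hspa1b. The highest Hspa1b mean, that of DDAC 0.25, includes the single library at 141 CPM.

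Hsp90aa1 encodes the inducible cytosolic HSP90, which matures kinases and steroid receptors. Its levels were 309, 248, 364 and 312 CPM in Control (308 ± 47.4) and 419, 508, 517 and 436 CPM at BKC 0.5 (470 ± 49.6), the highest group mean. The groups did not overlap. Hsp90aa1 rose at BKC 0.5 (0.61 ± 0.20, adjusted p = 0.0427), though leaving out Control replicate 1, 2 or 4, or replicate 2 or 3 of BKC 0.5, ended the call, with adjusted p reaching 0.146. At BKC 1 it read 341, 374, 351 and 612 CPM (0.44 ± 0.20, adjusted p = 0.149), with 1 library well above the other 3. At ADEB18 0.5 it read 352, 449, 384 and 394 CPM (0.36 ± 0.20, adjusted p = 0.322).

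Hspb1 encodes HSP27, a small heat shock protein that holds unfolded proteins without using ATP and stabilises actin. Of the 10 genes it alone had its highest mean in Control, where it read 732, 848, 617 and 809 CPM (752 ± 102). Its estimated difference was negative in all 12 dosed groups, from -0.61 to -0.18, all 12 set against the same 4 Control libraries. It read 459, 581, 512 and 550 CPM at BKC 0.5 (525 ± 52.2) and 446, 573, 445 and 505 CPM at DDAC 0.0625 (492 ± 60.4), each below every Control library. Hspb1 fell in both (-0.52 ± 0.14, adjusted p = 0.0153; -0.61 ± 0.14, adjusted p = 0.0125). Both calls ended without Control replicate 2 or 4 or without replicate 1 or 3 of the dosed group (adjusted p up to 0.0824 and 0.0641). At BKC 1 it read 537, 628, 594 and 889 CPM, the last above every Control library (-0.18, adjusted p = 0.472). All libraries also lay below every Control library at BKC 0.25 (-0.50 ± 0.14, adjusted p = 0.127) and ADEB18 0.5 (-0.45 ± 0.14, adjusted p = 0.0552), without passing.

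Hspd1 and Hspe1 encode HSP60 and its lid HSP10, and in the RefSeq annotation of GRCr8 they lie head to head on chromosome 9. Their promoter windows, running from 250 bases before to 50 bases after each start, are printed because both genes rose at BKC 0.5 and BKC 1 and their windows overlap. The starts are 290 bases apart and the windows share 211 bases. The letters searched were GAANNTTCNNGAA or TTCNNGAANNTTC, the repeat read by heat shock factors, and the shorter GAANNTTC or TTCNNGAA, on both strands. Every longer match holds 2 overlapping shorter ones. Matches are in capitals, and the windows lie at chr9:64083988-64084287 on the minus strand for Hspd1 and at chr9:64084077-64084376 on the plus strand for Hspe1.
Hspd1: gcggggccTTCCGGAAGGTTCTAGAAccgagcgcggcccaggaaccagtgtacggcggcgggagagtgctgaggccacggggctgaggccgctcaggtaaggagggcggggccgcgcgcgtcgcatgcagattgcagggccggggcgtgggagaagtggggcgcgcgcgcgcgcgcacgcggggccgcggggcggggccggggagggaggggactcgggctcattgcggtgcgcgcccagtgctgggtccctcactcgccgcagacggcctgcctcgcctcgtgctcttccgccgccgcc
Hspe1: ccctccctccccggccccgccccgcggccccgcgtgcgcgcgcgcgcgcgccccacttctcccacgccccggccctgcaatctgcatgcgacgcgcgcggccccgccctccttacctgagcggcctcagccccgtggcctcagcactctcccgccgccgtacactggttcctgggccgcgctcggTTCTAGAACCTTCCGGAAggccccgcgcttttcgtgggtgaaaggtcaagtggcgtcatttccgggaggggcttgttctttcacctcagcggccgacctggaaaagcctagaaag
The longer match falls in the shared stretch, starting 242 bases before the Hspd1 start and 65 bases before the Hspe1 start, so both windows hold the same element. The windows of Hspa8 (chr8:50080264-50080563, plus strand) and Hsph1 (chr12:10427118-10427417, plus strand) also hold the longer match and are shown for comparison.
Hspa8: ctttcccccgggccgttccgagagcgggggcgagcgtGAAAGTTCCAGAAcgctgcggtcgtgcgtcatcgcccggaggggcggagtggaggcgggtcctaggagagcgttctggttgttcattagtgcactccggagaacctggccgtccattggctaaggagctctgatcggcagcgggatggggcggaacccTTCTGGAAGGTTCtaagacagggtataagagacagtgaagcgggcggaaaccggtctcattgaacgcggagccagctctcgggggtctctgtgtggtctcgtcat
Hsph1: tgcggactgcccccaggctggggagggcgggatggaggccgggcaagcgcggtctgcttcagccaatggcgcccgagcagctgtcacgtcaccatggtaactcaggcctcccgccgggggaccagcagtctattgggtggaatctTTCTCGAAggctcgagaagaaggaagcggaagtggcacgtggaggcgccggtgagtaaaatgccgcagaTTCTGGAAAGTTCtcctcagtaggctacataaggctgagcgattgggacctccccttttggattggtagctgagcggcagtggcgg
RefSeq's promoter table held 8 of the 10 genes, without Hspa1b and Hsp90aa1. Of the 8 windows, 7 held the shorter match, against 15.9% of 33469 promoters, and 4 held the longer match, against 0.798%. The Hspa1a window held neither, which says only that these letters are not in this window. In both counts the element shared by Hspd1 and Hspe1 enters through both windows, and the genes were picked as heat shock genes.

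Hspe1 had the most calls against Control of the 10 genes. It read 90.8, 98.2, 106 and 95.5 CPM in Control (97.7 ± 6.49), 177, 161, 223 and 123 CPM at BKC 0.5 (171 ± 41.8) and 136, 193, 128 and 235 CPM at BKC 1 (173 ± 50.2). At ADEB18 0.5 the libraries read 143, 146, 146 and 156 CPM (148 ± 5.84). In all 3 groups every library lay above the Control libraries, and the ADEB18 0.5 libraries lay closest together. At DDAC 0.25 too every library (112, 156, 153 and 111 CPM) lay above the Control libraries, without passing. How many of all genes separated from Control in this way was not counted. Hspe1 rose by 0.81 ± 0.15 at BKC 0.5 (adjusted p = 0.000811) and by 0.82 ± 0.15 at BKC 1 (adjusted p = 0.000544), both in all 8 fits that left out 1 library. It rose by 0.60 ± 0.15 at ADEB18 0.5 (adjusted p = 0.0176; 0.0602 without Control replicate 4).

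Hspd1 read 77.6, 80.01, 78.8 and 69.3 CPM in Control (76.4 ± 4.84), 129, 135, 198 and 100 CPM at BKC 0.5 (141 ± 41.3) and 92.4, 163, 90.9 and 153 CPM at BKC 1 (125 ± 38.4). Both BKC groups lay wholly above Control, and at BKC 1 the libraries split into a lower and a higher pair. ABD 0.25, at 81.5, 119, 86.1 and 91.9 CPM, also lay wholly above Control, without passing (0.31 ± 0.20, adjusted p = 0.793). Hspd1 rose by 0.88 ± 0.20 at BKC 0.5 (adjusted p = 0.00341; 0.0547 without BKC 0.5 replicate 3) and by 0.71 ± 0.20 at BKC 1 (adjusted p = 0.0160; not called without Control replicate 4 or BKC 1 replicate 2 or 4, up to 0.102). At ADEB18 0.5 it read 89.1, 116, 108 and 117 CPM, above every Control library, without passing (0.50 ± 0.20, adjusted p = 0.138). Hspd1 was called there with ADEB18 0.5 and Control alone in the fit (adjusted p = 0.0192). It was also called with the mean level of the clock genes as a covariate, where the difference was 0.84 (adjusted p = 0.0499). That mean lay above its Control range at ADEB18 0.5, so it cannot be told apart from the group. At DDAC 0.0625 it read 52.2, 57.9, 55.5 and 61.5 CPM, below every Control library and also without passing (-0.43 ± 0.20, adjusted p = 0.284). Hspe1 there read 118, 110, 124 and 114 CPM, above every Control library (0.25, adjusted p = 0.458). At DDAC 0.125 the estimates also had opposite signs, -0.39 for Hspd1 and 0.13 for Hspe1, neither called.

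**Figure D3:**
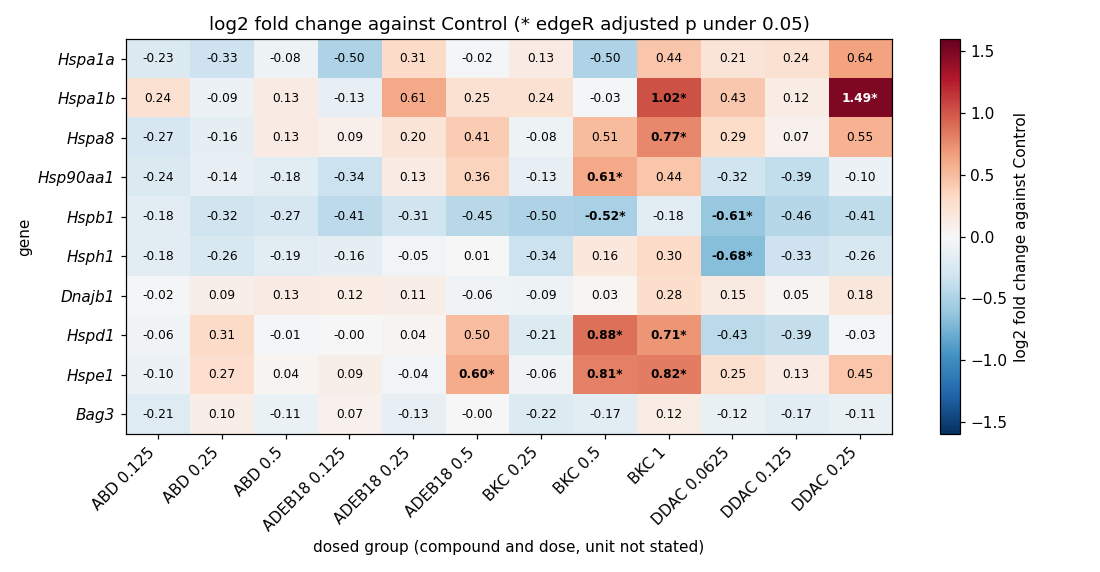
log2 fold change against Control (colour and number) of the 10 genes (rows) in the 12 dosed groups (columns), with an asterisk where the edgeR adjusted p was under 0.05. The 9 calls above Control lie in the columns of ADEB18 0.5, BKC 0.5, BKC 1 and DDAC 0.25, and the 3 below in those of BKC 0.5 and DDAC 0.0625.

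Counted over the 12 comparisons, which share the 4 Control libraries, 9 of 120 tests of these genes were called higher and 3 lower, from 7 of the 10 genes. At BKC 1, 4 genes rose (Hspa1b, Hspa8, Hspd1 and Hspe1), where 5.79% of all tested genes were called higher. At BKC 0.5, 3 rose (Hsp90aa1, Hspd1 and Hspe1), where 4.86% of all genes were called higher, and Hspb1 fell, where 4.29% were called lower. At ADEB18 0.5 Hspe1 rose (2.56% of all genes higher), at DDAC 0.25 Hspa1b rose (1.56% higher), and at DDAC 0.0625 Hspb1 and Hsph1 fell (1.39% lower). The other 7 groups had 0 calls among the 10 genes by edgeR, with 7 tests at an unadjusted p under 0.05 and 2 called by DESeq2, both of Hspb1. Those 2 were at BKC 0.25 and DDAC 0.125, where DESeq2 called 127 and 576 of all genes. How many of all genes had such an unadjusted p was not counted. By edgeR, the share of all genes called in these 7 groups in either direction was 0%, 0.0225% and 0.0169% for ABD from the lowest to the highest dose. It was 0.0393% at each of ADEB18 0.125 and 0.25, 0.208% at BKC 0.25 and 1.48% at DDAC 0.125. The median log2 fold change of the 10 genes was 0.44 at BKC 1, with 9 of 10 positive, and lay between -0.18 (ABD 0.125, 9 of 10 negative) and 0.13 (ADEB18 0.5) in the other 11 groups. That of all tested genes lay within 0.02 of 0.

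Between the highest and lowest dose of a compound, 5 of 40 tests of these genes were called, all higher. From BKC 0.25 to BKC 1, where 2.72% of all genes were called higher, Hspa8, Hsph1, Hspd1 and Hspe1 rose, and the difference was positive for all 10 genes with a median of 0.61. Hspe1 rose most firmly, by 0.88 ± 0.16 (adjusted p = 0.000867, held in all 8 fits without 1 library). Hspd1, at 76.2, 68.8, 65.9 and 52.7 CPM at BKC 0.25, rose by 0.92 ± 0.20 (adjusted p = 0.00531; 0.062 without BKC 1 replicate 2). Hspa8, at 66.01, 51.9, 49.5 and 35.4 CPM at BKC 0.25, rose by 0.85 ± 0.19 (adjusted p = 0.00574; not called without BKC 0.25 replicate 4 or BKC 1 replicate 2, up to 0.0538). Hsph1, at 160, 127, 93.6 and 86.7 CPM at BKC 0.25, rose by 0.65 ± 0.19 (adjusted p = 0.0367), a call that ended without BKC 0.25 replicate 2, 3 or 4 or BKC 1 replicate 2 or 4 (up to 0.181).

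In ADEB18, where 1.7% of all genes were called higher, Hsp90aa1 rose from 260, 255, 271 and 187 CPM at 0.125 to the 0.5 levels given above (0.70 ± 0.20, adjusted p = 0.0434). The groups did not overlap, but the call ended in all 8 fits that left out 1 library (up to 0.154). From DDAC 0.0625 to DDAC 0.25 the difference was positive for all 10 genes (median 0.24) with 0 called by edgeR or DESeq2 and 3 at an unadjusted p under 0.05. Hspa1b differed by 1.06 ± 0.28 (adjusted p = 0.299), and 0.0225% of all genes were called. ABD had 0 calls by either tool and 1 gene at an unadjusted p under 0.05, with 0.0169% of all genes called.

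The compounds were set against each other at doses of equal value in 12 comparisons, 3 at 0.125, 6 at 0.25 and 3 at 0.5, and 7 of 120 tests of these genes were called. In all 7 the ABD group was the lower, and the partner was DDAC 0.25 in 3, BKC 0.5 in 3 and ADEB18 0.5 in 1. The other 9 comparisons had 0 calls by edgeR, with 17 tests at an unadjusted p under 0.05 and 3 called by DESeq2. Those 3 had DDAC as partner, where DESeq2 called 476 of all genes for ADEB18 0.125, 545 for ADEB18 0.25 and 31 for BKC 0.25. How many of all genes had such an unadjusted p was not counted. By edgeR, the share of all genes called was 0.0169% between ABD and ADEB18 at both 0.125 and 0.25. It was 0.129% between ABD and BKC at 0.25, and 0% between ADEB18 and BKC at 0.25 and 0.5. With DDAC as partner it was 1.97% for ABD 0.125, 1.05% for ADEB18 0.125, 1.31% for ADEB18 0.25 and 0.0337% for BKC 0.25. Since the labels give no unit, equal numbers are taken as equal doses.

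At 0.25, where 0.865% of all genes were called lower in ABD than in DDAC, the HSP70 genes differed. Hspa1b was lower in ABD by a log2 difference of -1.59 (95% interval -2.17 to -1.01; adjusted p = 0.00572 over all genes and 1.76e-05 over the 12 pairs). Hspa1a, at 26.6, 21.9, 16.1 and 20.7 CPM in ABD 0.25, was lower, at a log2 difference of -0.97 (-1.39 to -0.56; adjusted p = 0.0145 and 0.000293). The ABD and DDAC libraries of Hspa1a did not overlap. Hspa8, at 30.2, 55.3, 36.3 and 69.3 CPM in ABD 0.25, overlapped with DDAC 0.25 and was lower, at a log2 difference of -0.71 (-1.09 to -0.34; adjusted p = 0.0395 and 0.00458). Without DDAC 0.25 replicate 1 none of the 3 was called over all genes. Hspa1a was also lost without ABD 0.25 replicate 3 (up to 0.1), and Hspa8 without ABD 0.25 replicate 1 or 3 or DDAC 0.25 replicate 2 or 3 (up to 0.264). Fitted with ABD 0.25 and DDAC 0.25 alone, none passed (adjusted p 0.186 for Hspa1a, 0.167 for Hspa1b and 0.257 for Hspa8).

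At 0.5, ABD and BKC differed in the mitochondrial chaperonins and HSP90, where 4.41% of all genes were called lower in ABD. Hspe1 read 105, 96.8, 97.0 and 104 CPM at ABD 0.5 (100 ± 4.17), below every BKC 0.5 library, a difference of -0.77 (-1.08 to -0.46; adjusted p = 0.00172 and 0.000119) that held in all 8 fits without 1 library. Hspd1, at 88.03, 78.4, 67.5 and 69.01 CPM, was lower, at a log2 difference of -0.89 (-1.29 to -0.49; adjusted p = 0.00384 and 0.000569; 0.0523 without BKC 0.5 replicate 3). Hsp90aa1, at 335, 248.97, 281 and 225 CPM, was lower, at a log2 difference of -0.79 (-1.18 to -0.39; adjusted p = 0.00954 and 0.00311; 0.0528 without ABD 0.5 replicate 4). None of these 3 genes had overlapping groups, and how many of all genes separated in this way was not counted. Against ADEB18 0.5, where 1.88% of all genes were called lower in ABD, Hspe1 was lower, at -0.56 (-0.87 to -0.25; adjusted p = 0.0341 and 0.00451). The call held only without ABD 0.5 replicate 1 among 8 such fits (up to 0.0951 in the others). With ABD 0.5 and ADEB18 0.5 alone in the fit, Hsp90aa1 (-0.53, adjusted p = 0.0188) and Hspd1 (-0.50, adjusted p = 0.0184) were called as well.

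BKC and DDAC, which differ in a benzyl group against a pair of decyl chains if the names stand for what they usually do, shared only the dose of 0.25. None of the 10 genes passed over all genes by edgeR (0.0337% of all genes did), with 4 at an unadjusted p under 0.05. Hspa1b was called by DESeq2, which called 31 of all genes there. The largest difference was in Hspa1b, -1.25 in BKC 0.25 against DDAC 0.25 (interval -1.82 to -0.68; adjusted p = 0.0837 over all genes and 0.000349 over the 12 pairs). For Hsp90aa1 the difference was -0.03, with an interval from -0.43 to 0.37, and for Bag3 -0.10, from -0.36 to 0.15. ADEB18 0.5 and BKC 0.5 differed in 0 of the 10 genes by edgeR and DESeq2, with 1 at an unadjusted p under 0.05. Of all genes 0% were called, and the interval for Hspe1 ran from -0.52 to 0.10.

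**Figure D4:**
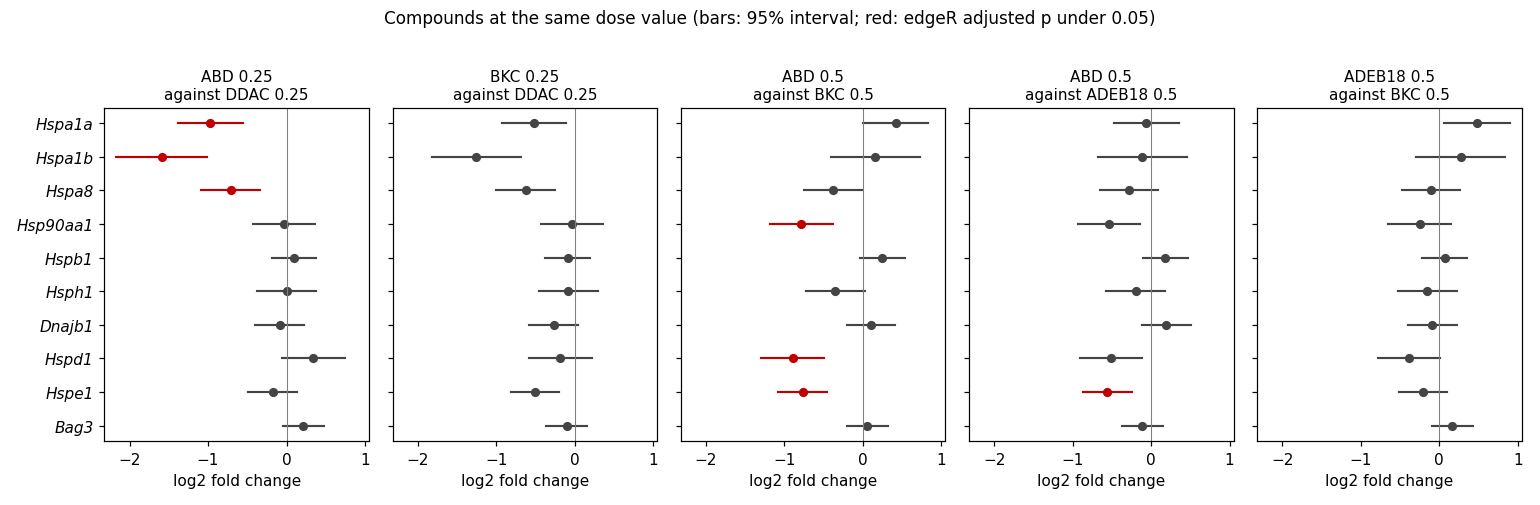
log2 fold change (horizontal axis; points with 95% intervals) of the 10 genes in 5 of the 12 comparisons of compounds at a dose of equal value, with red for an edgeR adjusted p under 0.05. Hspa1a, Hspa1b and Hspa8 are red in ABD 0.25 against DDAC 0.25, Hsp90aa1, Hspd1 and Hspe1 in ABD 0.5 against BKC 0.5, and Hspe1 in ABD 0.5 against ADEB18 0.5.

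The wider chaperone system was read from lists of its other genes. The counts below stand against 2.56% of all tested genes called higher at ADEB18 0.5, 4.86% at BKC 0.5 and 5.79% at BKC 1. At DDAC 0.0625, 0.927% of all genes were called higher and 1.39% lower. Of 15 other cytosolic HSP70, HSP90 and J-domain genes, 2 rose and none fell at each of BKC 0.5 and BKC 1. They were Dnaja1, a J-domain partner of HSP70 (0.51, adjusted p = 0.00841; 0.66, adjusted p = 0.000699), and Hsp90ab1, the constitutive HSP90 (0.38, adjusted p = 0.0298; 0.40, adjusted p = 0.0199). Dnaja1 also rose at ADEB18 0.5 (0.48, adjusted p = 0.0232). Of 18 co-chaperones, 1 rose at ADEB18 0.5, 3 at BKC 0.5 and 5 at BKC 1, among them in all 3 groups Ptges3, the HSP90 partner p23 (0.55, 0.63 and 0.65). At DDAC 0.0625 the co-chaperones Ahsa1, which speeds the ATPase of HSP90 (-0.53, adjusted p = 0.0211), and Hspbp1, an HSP70 exchange factor (-0.54, adjusted p = 0.0305), fell. Of the 8 subunits of TRiC, the cytosolic chaperonin that folds actin and tubulin, 6 rose at BKC 0.5 and 5 at BKC 1, led by Cct6a (0.81, adjusted p = 0.0025; 0.86, adjusted p = 0.00115), while Cct4 fell at DDAC 0.0625 (-0.64, adjusted p = 0.00568).

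Of 10 other mitochondrial chaperones and proteases, 4 rose at BKC 0.5 and 3 at BKC 1. Hspa9, the matrix HSP70 mortalin, rose at ADEB18 0.5 (1.22, adjusted p = 0.00431), BKC 0.5 (1.15, adjusted p = 0.00283), BKC 1 (1.39, adjusted p = 0.000443) and DDAC 0.0625 (0.89, adjusted p = 0.0476). Of 14 chaperones of the endoplasmic reticulum, 6 rose at BKC 0.5 and 9 at BKC 1. They included Manf, a secreted stress protein (0.82, adjusted p = 0.00449; 1.13, adjusted p = 0.000203), and Hspa5, the HSP70 BiP (0.49, adjusted p = 0.0469; 0.69, adjusted p = 0.00354). Hspa5 fell at DDAC 0.0625 (-0.81, adjusted p = 0.00332). Of 16 heat shock factor 1 targets outside the 10 genes, a list that overlaps those above, 4 rose at BKC 0.5 and 3 at BKC 1. Of the 4 heat shock factor genes, and of 5 other small heat shock genes tested, 0 passed at BKC 1 by edgeR or DESeq2. At an unadjusted p under 0.05 there were 0 of the factors and 2 of the small heat shock genes, both lower. The libraries also held cardiac muscle markers, 8 of which summed to 116 to 3198 CPM in Control and 118 to 1351 CPM at BKC 1. The part of such tissue in the small heat shock genes was not tested.

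Markers of other cells moved in the same groups, where the shares of all genes called higher were those just given and the shares called lower were 2.1% at ADEB18 0.5, 4.29% at BKC 0.5 and 4.56% at BKC 1. Of 9 markers of recruited macrophages, 7 rose at BKC 0.5 and at BKC 1, 5 at ADEB18 0.5 and 1 at DDAC 0.25 (1.56% of all genes higher). Their summed level ran from 575 to 632 CPM in Control, 1417 to 2851 CPM at BKC 0.5, 1492 to 3149 CPM at BKC 1, 1392 to 1744 CPM at ADEB18 0.5 and 623 to 1315 CPM at DDAC 0.25. Of 6 mitosis genes, 5 rose at BKC 0.5, 3 at BKC 1 and 2 at ADEB18 0.5, with sums of 229 to 323 CPM in Control and 431 to 869 CPM at BKC 0.5. Of 5 endothelial markers, 4 fell at BKC 0.5 and 2 at BKC 1, with sums of 1530 to 2023 CPM in Control, 833 to 1374 CPM at BKC 0.5 and 939 to 1365 CPM at BKC 1. At ADEB18 0.5 their sums, 1203 to 1307 CPM, also lay below Control. Of 5 markers of alveolar type 1 cells, 2 fell at BKC 0.5 and 1 at each of BKC 1 and ADEB18 0.5. Their sums ran from 2820 to 4259 CPM in Control, 1263 to 2645 CPM at BKC 0.5, 1506 to 2558 CPM at BKC 1 and 1989 to 2709 CPM at ADEB18 0.5. Ciliated cell markers summed to 459 to 574 CPM in Control, 292 to 364 CPM at BKC 0.5, 231 to 426 CPM at BKC 1 and 334 to 431 CPM at ADEB18 0.5. Their sums also lay below Control at ABD 0.5 (295 to 388 CPM) and DDAC 0.25 (302 to 384 CPM). Erythroid genes summed to 26621 to 34782 CPM in Control, 11236.5 to 26229 CPM at BKC 0.5 and 15091.5 to 22126 CPM at BKC 1. The part of these cells in the changes of the heat shock genes was not tested.

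Genes of the circadian clock also differed between groups. The mean log2 CPM of 16 clock genes was 4.37 ± 0.0649 in Control and 5.11 ± 0.0648 at DDAC 0.25, where 8 of the 16 rose and 3 fell, against 1.56% of all genes called higher and 0.91% lower. It ran from 4.28 to 4.44 in Control, 4.88 to 4.97 at DDAC 0.0625, 5.02 to 5.16 at DDAC 0.25 and 4.49 to 4.73 at ABD 0.25. At BKC 0.5 (4.61 to 4.89), BKC 1 (4.56 to 4.85) and ADEB18 0.5 (4.71 to 4.89) it also lay above the Control range. All these ranges lie apart from Control, and that of ABD 0.25 lies apart from DDAC 0.25. In these comparisons the mean and the group therefore cannot be told apart. A call lost with the mean as a covariate does not show a smaller difference. A call kept or gained does not show a difference apart from the clock mean.

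With the covariate, Hspa1b differed from Control by 1.17 at DDAC 0.25 (adjusted p = 0.746) and by 0.89 at BKC 1 (adjusted p = 0.0831). At DDAC 0.0625 Hspb1 differed by -0.68 (adjusted p = 0.479) and Hsph1 by -0.65 (adjusted p = 0.636), about as much as without it. Hsp90aa1 at BKC 0.5 differed by 0.71 (adjusted p = 0.057) and Hsph1 between the BKC doses by 0.64 (adjusted p = 0.0755). Between ABD 0.25 and DDAC 0.25 the differences were -0.77 for Hspa1a (adjusted p = 0.64), -1.37 for Hspa1b (adjusted p = 0.565) and -0.56 for Hspa8 (adjusted p = 0.725). The calls of Hspd1 and Hspe1 at BKC 0.5 and BKC 1 held, with adjusted p from 0.00098 to 0.00309. There too the clock mean and the group cannot be told apart.

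Within groups the genes did not all vary together. Over the 52 libraries, with each value taken as its deviation from the group mean, 14 of the 45 pairs of genes passed both Pearson's and Spearman's test (100000 permutations within groups, Benjamini-Hochberg adjusted over the 45), 13 of them positive. Hspd1 and Hspe1 were closest (r = 0.763, rho = 0.738, permutation p = 1e-05, the smallest the permutations allow, adjusted p = 0.00045; r = 0.76 without the 2 farthest libraries). Hspa8 and Hspe1 followed (r = 0.661, rho = 0.649, adjusted permutation p = 0.00202 and 0.00112; r = 0.627 without the 2 farthest). Hspa1a and Hspa1b gave r = 0.618 and rho = 0.533 (adjusted permutation p = 0.00324 and 0.00577; r = 0.496 without the 2 farthest), and Hsp90aa1 and Hsph1 gave r = 0.531 and rho = 0.551 (0.00324 and 0.00405; 0.579). The single negative pair was Hspa1a with Hspd1 (r = -0.397, rho = -0.423, adjusted permutation p = 0.0497 and 0.0253; r = -0.449 without the 2 farthest). This order covers the 45 pairs alone. On the same deviations, genes outside these pairs followed Hspd1 and Hspe1 more closely than Hspd1 and Hspe1 followed each other. For Hspd1 they included Nme2 (r = 0.856), Cd63 (0.843) and Hmgb2 (0.812). For Hspe1 they included Eef1b2 (0.816), Snrpd1 (0.812) and Rps6 (0.779). Their correlations were not tested. All values of a library share its depth and tissue piece.

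**Figure D5:**
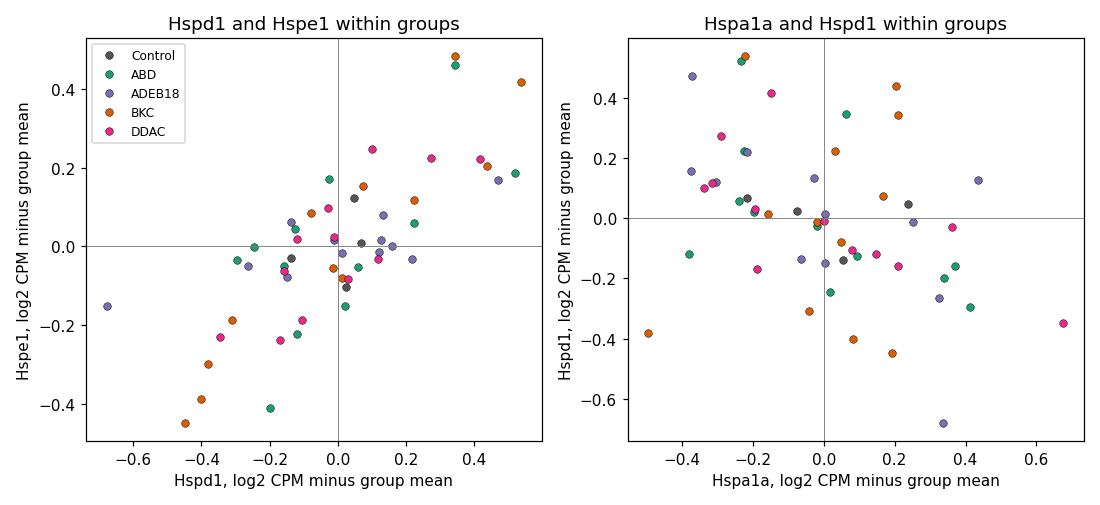
Deviation of log2 CPM from the group mean for Hspd1 against Hspe1 (left) and Hspa1a against Hspd1 (right), 1 point per library, coloured by compound. The left points rise together (r = 0.763), and the right points slope weakly down (r = -0.397).

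Among 12004 genes with a mean of at least 5 CPM, those most like the mean of the 10 genes over the 52 libraries were Krt8 (r = 0.785), Rpn2 (0.779), Odc1 (0.776), Eef1b2 (0.772) and Tars1 (0.772). On deviations from the group means, the closest included Hsp90ab1 (0.786), Hspa5 (0.665), Snrpd1 (0.653) and Rpl17 (0.653). These correlations describe the libraries and carry no test.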

How the data were processed

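Lung RNA (500 ng of total RNA, QuantSeq 3′ kit, per the labels) was sequenced in 52 libraries. The authors deposited 1 file of whole-number read counts per gene symbol for each library; per the submitters' processing notes, fastp, STAR, HTSeq and the build mRatBN7.2 were used, with no versions. Annotation and strand setting: not given in the sources used here. CPM and log2 CPM (prior count 2) were computed here from the deposited counts. Without the strand setting, reads of overlapping antisense genes cannot be told apart.

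Genes were filtered by filterByExpr and tested with edgeR 4.0.16 (R 4.3.3), TMM factors and the quasi-likelihood test, with a term for each of 13 groups over 52 libraries (39 residual degrees of freedom) and Benjamini-Hochberg adjustment over 17796 genes; a gene was called at an adjusted p under 0.05. The 28 comparisons were 12 dosed groups against Control, 4 of highest against lowest dose and 12 of compounds at doses of equal value. The test was tested on simulated data. Alternatives were DESeq2 1.42.0, RLE factors, library size alone, no filter, a replicate block, a clock-gene covariate, the sum of Hspa1a and Hspa1b, 2 groups alone, and leaving out each library. Members, lists and tests were chosen with earlier results of these data known; lists were named by symbol, and every member is described. No 2 libraries held identical values. A gene among those most like the members is not reported here. Promoter sequences came from RefSeq (GRCr8) and no coordinates were converted.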

Additional observations from a re-analysis of the deposited data

Results flagged for a closer look

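In 5 of 130 sets of 4 libraries (10 genes in 13 groups) a single library lay far from the other 3 on the log2 CPM scale; chance flags about 1 in 20 such sets (5%). The library was lowest for Hsp90aa1 at ABD 0.25 (replicate 3, 191 CPM) and ADEB18 0.125 (replicate 4, 187 CPM), and highest for Hsp90aa1 at BKC 1 (replicate 4, 612 CPM) and for Dnajb1 at ABD 0.5 (replicate 4, 73.5 CPM) and ADEB18 0.125 (replicate 2, 78.8 CPM).

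In 7 cases compounds at a dose of equal value differed by the edgeR test of the difference itself. At 0.25 ABD was lower than DDAC in Hspa1a (log2 difference -0.97), Hspa1b (-1.59) and Hspa8 (-0.71). At 0.5 ABD was lower than ADEB18 in Hspe1 (-0.56) and lower than BKC in Hsp90aa1 (-0.79), Hspd1 (-0.89) and Hspe1 (-0.77).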

How the results depend on the processing

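No call reversed its direction under any alternative. Against Control, where 9 tests were called higher and 3 lower, the higher count ran from 7 with the clock-gene covariate to 10 with DESeq2, and the lower count was 1 with the clock-gene covariate and 6 with DESeq2. Between compounds, where 7 were lower, 4 were lower with the clock-gene covariate. Leaving out 1 library at a time gave 6 to 10 higher and 0 to 4 lower against Control, 2 to 6 higher and 0 lower between doses (5 and 0 with all libraries), and 0 higher and 4 to 9 lower between compounds. The counts that moved by more than 1.5 times were the lower count against Control, which was 0 without Control replicate 2 or 4 and 1 without DDAC 0.0625 replicate 1 or 3, the count between doses, which was 3 without BKC 0.25 replicate 4 and 2 without BKC 1 replicate 2, and the count between compounds, which was 4 without DDAC 0.25 replicate 1. Comparisons that did not hold the left-out library's group kept the value of the full fit. Fitted as 2 groups alone, Hspb1 at BKC 0.5 (adjusted p = 0.0537), Hspd1 at BKC 1 (0.0525) and Hsph1 between the BKC doses (0.0764) were no longer called, while Hspb1 and Hspd1 at ADEB18 0.5 (0.0282 and 0.0192), Hspe1 between the ADEB18 doses (0.0330) and Hsp90aa1 and Hspd1 in ABD 0.5 against ADEB18 0.5 (0.0188 and 0.0184) were gained. The calls between ABD 0.25 and DDAC 0.25 also ended in that fit, and with RLE factors Hsp90aa1 between the ADEB18 doses was not called (0.0632); the cause was not tested. Beyond the 24 calls, DESeq2 called Hspa8 at BKC 0.5 (0.0440) and Hspb1 at ADEB18 0.5 (0.0239), BKC 0.25 (0.0462) and DDAC 0.125 (0.0422), Hspe1 between the ADEB18 doses (0.0457) and Hsp90aa1 between the BKC doses (0.0421), which made 7 between doses. It also called Hspa1a in ADEB18 0.125 against DDAC 0.125 (0.0282) and Hspa1b in ADEB18 0.25 (0.0428) and BKC 0.25 (0.00901) against DDAC 0.25; without the filter edgeR called the last as well (0.0452).

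No strong pairing by replicate number was seen. Deviations of same-numbered libraries correlated at 0.00387 on average (0.0235 for number 4, the highest), against -0.00127 for different numbers. A mean near 0 does not show that the libraries were unpaired. With the replicate number as a block, 9 were called higher and 3 lower against Control, 5 higher between doses and 7 lower between compounds, the same counts as without the block.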
